A study of Sus scrofa with 6 samples.

Results

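Floor plate cells that carried neither LMX1A nor RSPO2 were 4338 of the 104820 cell barcodes in 6 single-cell RNA libraries of porcine midbrain-like organoids (pMLOs). The pMLOs were grown from IVF_1_ pESC_FIW, a pig embryonic stem cell line derived by in vitro fertilization, and all organoids came from this 1 line. Each was patterned with SB431542 and Noggin, which block SMAD signalling, with the hedgehog protein SHH-C24II and with CHIR99021, an activator of WNT signalling, so no library lacks these agents and there is no untreated control. They then received FGF8, later joined by BDNF and ascorbic acid. After D11 the organoids were embedded in Matrigel and kept in medium with BDNF, GDNF, ascorbic acid, db-cAMP and the NOTCH pathway inhibitor DAPT. The organoids were sampled on day 11 (D11), day 28 (D28) and day 45 (D45) of culture, with 2 libraries per day (A and B). The labels give midbrain dopaminergic neurons as the cell type of every library, D11 included. The cells described here cannot bear on that label, because their rule leaves out cells with 3 or more UMIs of a neuronal gene.

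The cells were picked on D11 by their unique molecular identifiers (UMIs, 1 per captured mRNA molecule). A cell needed 2000 or more UMIs, at most 7000 detected genes, 1 or more UMI of at least 2 of FOXA2, SHH and CORIN, no UMI of LMX1A or RSPO2, fewer than 3 UMIs of the neuronal gene STMN2, and fewer than 3 detected genes among TOP2A, CENPF, NUSAP1, UBE2C and BIRC5, which serve mitosis. Since these 11 genes chose the cells, their values are given as a description and were not tested. The rule kept 1955 of 13048 cells within the depth limits in D11 A (14.98%, exact Clopper-Pearson 95% interval 14.4 to 15.6%) and 2383 of 14675 in D11 B (16.2%, 15.6 to 16.8%), a mean of 15.6% ± 0.888 (SD, n = 2). The intervals cover counting error only.

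The floor plate is the strip of glia-like cells at the ventral midline of the neural tube. It secretes Sonic hedgehog (SHH), which patterns the ventral neural tube, and guidance proteins such as netrin and the SLITs, which steer commissural axons across the midline. Along its length it is not uniform: in the midbrain it expresses LMX1A and OTX2 and gives rise to dopaminergic neurons, whereas in the hindbrain and spinal cord it does not make these neurons.

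The floor plate label was checked against markers outside the rule. Of 15 further floor plate genes, 11 were higher than in all other D11 cells, where 21.5% of all genes tested were, and 3 (NKX6-1, SLIT3 and CTNND2) were lower, as were 22.5% of all genes (edgeR, adjusted p under 0.05). The call of CTNND2 was lost without either D11 library (adjusted p = 0.871 and 0.840) and that of SLIT3 without D11 B (0.0576). Among cells thinned to 5000 UMIs each, FOXA1, a forkhead factor of the floor plate, had a UMI in 75.1% and 72.3% of the cells without LMX1A and RSPO2 (D11 A and B), against 11.0% and 24.3% of marker-negative cells, which had none of FOXA2, SHH and CORIN. Levels are in CPM: a gene's UMIs in a group of cells per 1000000 UMIs of that group. The summed level of 9 neuronal genes was 296 and 263 CPM, against 8046 and 8327 CPM in cells with 3 or more STMN2 UMIs, a contrast that the STMN2 term of the rule sets. TBXT of the notochord and SOX17, GATA6 and AFP of endoderm, 2 tissues that also use FOXA2, had no UMI. The 9 endoderm genes together reached 19.97 and 23.6 CPM, of which CDH1 made up 19.4 and 23.3 CPM, and the 5 notochord genes reached 28.0 CPM in both libraries. The notochord gene CHRD, a secreted BMP inhibitor, was at 4.33 and 6.82 CPM against 0.862 and 0.761 CPM in marker-negative cells (log2 difference 2.82 ± 0.30, adjusted p = 5.38e-06). CDH1 was at 11.3 and 11.8 CPM there and differed by 0.97 ± 0.18, a call lost without either D11 library. Against all other D11 cells CDH1 was higher by 0.96 ± 0.07 (adjusted p = 8.46e-06) and CHRD by 1.08 ± 0.13 (0.000205). KRT18 of notochord and CLDN6 of endoderm were lower in that comparison (-3.36 and -1.84). Against floor plate cells with both LMX1A and RSPO2, CDH1 was higher by 1.07 ± 0.21 (adjusted p = 0.00208). There CHRD did not pass (-0.04 ± 0.22), and KRT8 and KRT18 were lower. The part of other cell types in these levels was not tested.

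Most of the cells sat well inside the depth limits. Their median was 11139 and 11072 UMIs and 3815 and 3729 detected genes, the lowest cell had 2038 and 2120 UMIs, and the median mitochondrial share was 1.28% and 1.42%. A doublet caller marked 4.60% and 9.32% of them, against 6.56% and 11.2% of other cells within the limits. Its rate over all barcodes was set beforehand from their number in each library (5.96% and 8.72%), so the difference between libraries is not a measured one. D11 A and D11 B shared 86 barcodes. The D11 libraries held 162398792 and 182113104 UMIs, and the other 4 libraries between 112777548 and 135311951.

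FOXA2, the forkhead factor that specifies floor plate, had a UMI in 89.3% and 90.3% of the cells, CORIN, a serine protease of floor plate cells, in 86.0% and 87.0%, and SHH in 63.2% and 58.2%. The commonest pairing was FOXA2 with CORIN and no SHH (36.8% and 41.8%), close to the share with all 3 genes (38.4% and 35.5%), while FOXA2 with SHH (14.0% and 13.01%) and SHH with CORIN (10.7% and 9.74%) were rarer. Just outside the rule, 1037 and 1176 cells had 1 of the 3 genes and otherwise passed. At the STMN2 limit, 34 and 110 cells inside had 2 UMIs and 16 cells in each library had 3 UMIs outside. At the mitosis limit, 593 and 849 cells inside had 2 of the 5 genes, and 288 and 414 outside had 3. NUSAP1 was present in 84.0% and 81.5% of the cells kept and at least 1 of the other 4 genes in 34.7% and 40.8%.

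Within the floor plate gate (the same rule without the LMX1A and RSPO2 terms), cells with neither gene were 58.3% and 56.1%. Cells with LMX1A only were 26.1% and 29.2%, cells with RSPO2 only were 1.58% and 2.14%, and cells with both were 14.0% and 12.6%. A count of 0 can also be a missed molecule. The share with both genes at 0 was 67.0% and 64.0% among cells of 2000 to 5000 UMIs, 57.2% and 56.3% at 5000 to 10000, 61.0% and 57.3% at 10000 to 15000, and 47.9% and 48.3% at 15000 or more. Thus close to 48% of the deepest cells of the gate still had no UMI of either gene, and at this depth a low level in them was not excluded.

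**Figure D1:**
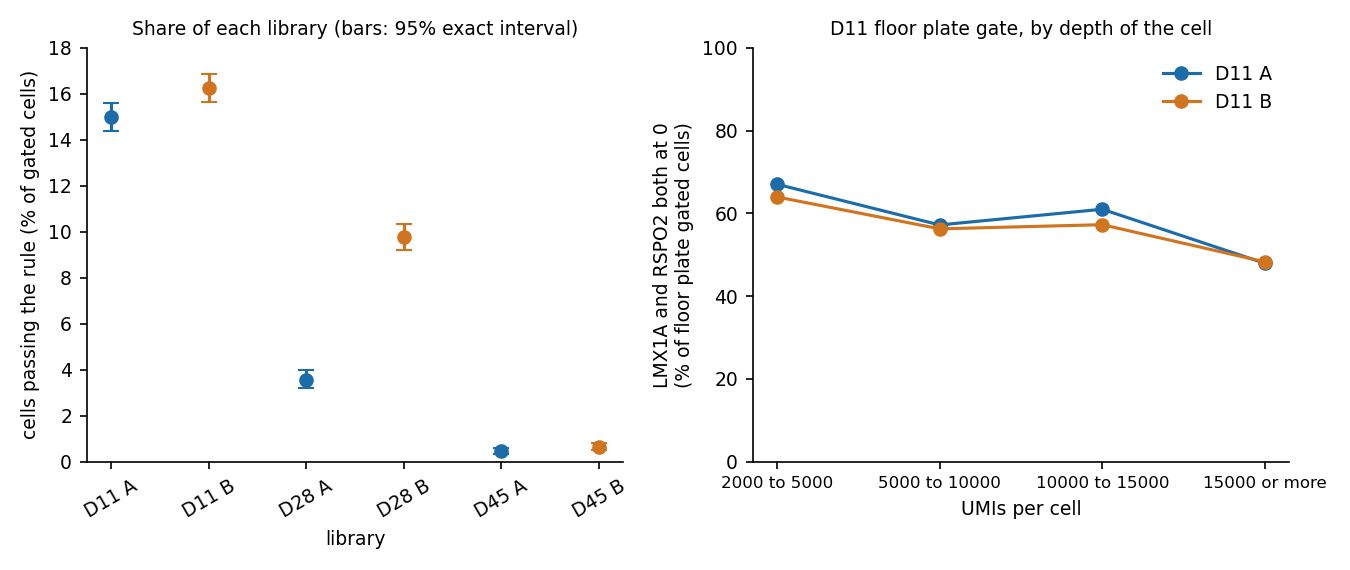
Left, percent of cells within the depth limits that passed the rule in each library of D11, D28 and D45 (points, with exact 95% intervals as bars). Right, percent of D11 floor plate gated cells with no UMI of LMX1A and RSPO2 in 4 ranges of UMIs per cell, which is 67.0% in the shallowest and 47.9% in the deepest range of D11 A, and 64.0% and 48.3% in D11 B.

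Which genes went with the absence of LMX1A and RSPO2 was asked by comparing these cells with the double-positive cells of the same gate (471 and 535 cells with 1 or more UMI of both genes). UMI counts were summed per library and class and fitted with edgeR's quasi-likelihood test with the library as a term, with Benjamini-Hochberg adjustment at 0.05. Of 17023 genes tested, 26.4% were called, 2527 (14.8%) higher and 1960 (11.5%) lower in cells without the 2 genes. Without D11 A or D11 B, with the spread taken from D28 and D45, 609 and 590 were called. The classes were cut from counts of 11 genes in these same cells, so a call says that a gene goes with the gate in both libraries. With the library as a term, the p-values measure how far differences between classes of cells varied between 2 libraries, which the study describes as biological duplicates. That spread was pooled over 12 sums from these libraries, with 5 residual degrees of freedom. An exact permutation test of 2 against 2 values that ignores the pairing within libraries could not go below p = 0.333.

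The secreted midline genes differed in both directions. SPON1 (F-spondin, an adhesion protein for commissural axons; ENSSSCG00000013393, chromosome 2, 44967982 to 45299677, Sscrofa11.1) was at 2294 and 1781 CPM in cells without LMX1A and RSPO2 and at 680 and 577 CPM in double-positive cells, a log2 difference of 1.72 ± 0.05 (SE; adjusted p = 7.88e-11). NTN1, the axon attractant netrin, was at 673 and 529 CPM against 368 and 323 CPM (0.82 ± 0.12). SULF1, a sulfatase that trims heparan sulfate, was at 838 and 664 CPM against 522 and 426 CPM (0.69 ± 0.05). For these 3 genes both libraries of the cells without LMX1A and RSPO2 lay above both double-positive libraries.

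Other floor plate genes ran the other way. The midline repellents SLIT2 (3224 and 2551 CPM against 4369 and 3362 CPM) and SLIT3 (176 and 142 CPM against 289 and 233 CPM) were lower by 0.39 ± 0.07 and 0.69 ± 0.09 on the log2 scale. For SLIT2 the 2 libraries of cells without LMX1A and RSPO2 (2551 to 3224 CPM) and the double-positive libraries (3362 to 4369 CPM) came close without overlapping. BMP7, ALCAM and the catenin CTNND2 were lower too, with log2 differences of -0.79, -0.70 and -1.17. FOXA1 was at 318 and 292 CPM against 427 and 391 CPM (-0.39 ± 0.17, adjusted p = 0.104). In all, 3 of the 15 floor plate genes outside the rule were higher, 6 were lower and 6 did not pass, with a median log2 difference of -0.23 against 0.03 over all genes tested. Of all genes tested 14.8% were higher and 11.5% lower. When 1 D11 library was left out, the calls of SPON1 and SULF1 held. NTN1, CTNND2 and ALCAM lost theirs without D11 A (adjusted p = 0.0502, 0.0570 and 0.0641), and SLIT2, SLIT3 and BMP7 without either library (0.196 to 0.631).

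Genes of position along the neural tube differed strongly between the 2 kinds of floor plate cell. OTX2, the homeobox gene of forebrain and midbrain (ENSSSCG00000005063, chromosome 1, 186028575 to 186039026), was at 3.10 and 4.03 CPM in cells without LMX1A and RSPO2 and at 128 and 141 CPM in double-positive cells, a log2 difference of -5.20 ± 0.17 (adjusted p = 2.68e-10). EN1, a homeobox gene of the midbrain and its border with the hindbrain, was at 19.0 and 27.9 CPM against 179 and 174 CPM (-2.90 ± 0.18). GBX2, the homeobox gene of the anterior hindbrain (ENSSSCG00000016319, chromosome 15, 136029393 to 136032568), was at 19.7 and 22.0 CPM against 4.97 and 4.60 CPM (2.17 ± 0.25). The groups did not overlap for any of the 3.

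Further position genes followed the same split, at low levels. PAX5, a paired-box gene of the midbrain-hindbrain boundary, was at 16.5 and 15.2 CPM against 2.72 and 3.60 CPM, and NKX2-2, which marks the domain beside the floor plate, was at 18.5 and 15.1 CPM against 3.04 and 4.03 CPM. WNT5A, a WNT ligand of the midbrain floor plate, was lower (43.9 and 40.9 CPM against 94.8 and 82.4 CPM, log2 difference -1.04 ± 0.10). LMX1B, the paralogue of LMX1A, was at 23.5 and 18.9 CPM against 27.2 and 23.0 CPM (-0.22 ± 0.21, adjusted p = 0.494). HOXB1 had no UMI, and HOXA2 of the hindbrain reached 1.18 and 0.791 CPM. Of all genes tested 14.8% were higher and 11.5% lower. Of the 8 boundary and hindbrain genes tested 3 were higher and 1 was lower, and of the 9 dopaminergic progenitor genes 1 was higher and 3 (OTX2, EN1 and WNT5A) were lower. The higher one was NR4A2, a nuclear receptor of dopaminergic neurons (91.1 and 109 CPM against 83.9 and 90.4 CPM, 0.22 ± 0.06, adjusted p = 0.0108), whose call was lost without either D11 library (adjusted p = 0.460 and 0.838). Without D11 B the call of GBX2 was lost (adjusted p = 0.110) and without D11 A that of WNT5A (0.120), while those of OTX2, EN1, PAX5 and NKX2-2 held without either library.

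The share of cells with a UMI told the same at equal depth. After thinning to 5000 UMIs, OTX2 was found in 1.4% and 1.6% of the cells without LMX1A and RSPO2 (2.71% and 3.36% before thinning), in 43.1% and 49.5% of double-positive cells, and in 8.2% and 7.5% of neuronal cells. The share in the cells without LMX1A and RSPO2 lay below that in every other class shown, so it is not read as expression. EN1 was found in 7.9% and 11.4% of them and in 51.5% and 48.8% of double-positive cells. GBX2 was found in 7.8% and 9.4%, against 2.2% and 1.7% of double-positive and 0.4% and 1.5% of marker-negative cells, whose median depths were 12876 and 12674 UMIs and 9242 and 8091 UMIs before thinning.

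**Figure D2:**
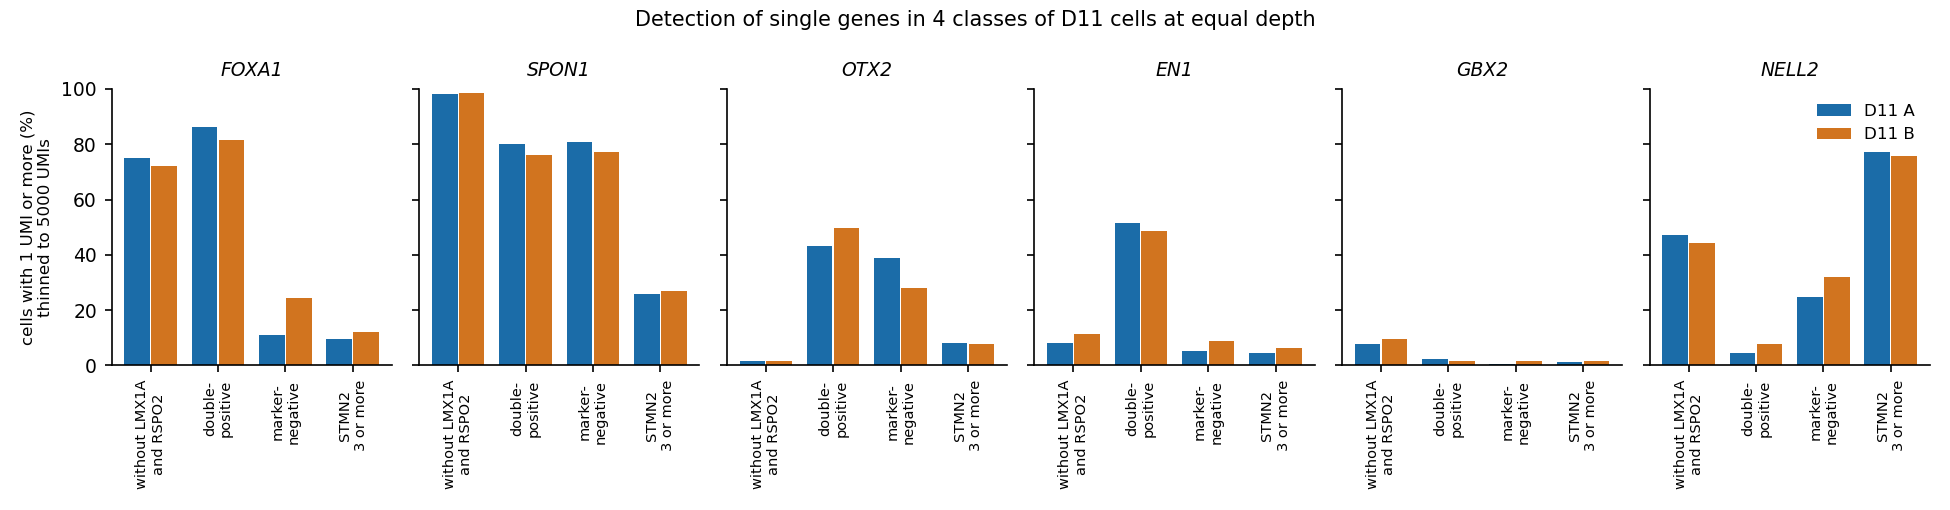
Percent of D11 cells with 1 or more UMI of each gene after every cell was thinned to 5000 UMIs, in 4 classes of cells and both libraries (bars). OTX2 is found in 1.4% and 1.6% of the cells without LMX1A and RSPO2 and in 43.1% and 49.5% of double-positive cells, and NELL2 shows the opposite order among floor plate cells.

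Of the 10 genes most raised in cells without LMX1A and RSPO2, NELL2, a secreted ligand that repels axons through ROBO3 (ENSSSCG00000000802, chromosome 5, 75505092 to 75837324), was at 192 and 189 CPM against 14.9 and 23.1 CPM (log2 difference 3.33 ± 0.15, adjusted p = 3.6e-09). It was found in 47.0% and 44.3% of these cells at equal depth, against 4.3% and 7.6% of double-positive and 77.2% and 75.8% of neuronal cells. EPHB1, a receptor for ephrin-B ligands, was at 90.2 and 58.8 CPM against 9.61 and 5.61 CPM (3.31 ± 0.17), and LRRTM1, a synaptic adhesion protein with leucine-rich repeats, at 63.5 and 58.9 CPM against 6.73 and 5.90 CPM (3.31 ± 0.15). HLA-DRA, a class II histocompatibility chain, was at 60.5 and 65.9 CPM against 5.93 and 6.76 CPM (3.35 ± 0.23). It belongs to a multigene family whose reads can be split among copies, so its level is uncertain. GASK1B, GALNTL6, ARHGEF3, SHISAL1, COL23A1 and PDE1A completed the 10 with log2 differences of 2.59 to 2.84, and only COL23A1 among the 10 lost its call without a D11 library (adjusted p = 0.166 without A and 0.110 without B).

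The falls were larger. LRRTM3, a relative of LRRTM1 (ENSSSCG00000010232, chromosome 14, 70172460 to 70352073), was at 1.41 and 2.07 CPM against 333 and 239 CPM (log2 difference -7.29 ± 0.19, adjusted p = 6.13e-11), and the sodium channel SCN3A at 1.14 and 2.37 CPM against 241 and 198 CPM (-6.88 ± 0.19). SCIN, an actin-severing protein, was at 0.912 and 0.904 CPM against 81.5 and 106 CPM, and the netrin receptor UNC5D at 5.79 and 4.78 CPM against 275 and 281 CPM. The other genes were VWDE, DMRTA2, IRX6, MTNR1A, MET and OTX2, with log2 differences of -6.79 to -5.20. DMRTA2 and IRX6 encode transcription factors, MTNR1A is a melatonin receptor and MET is the receptor for hepatocyte growth factor. All 10 kept their calls without either D11 library.

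**Figure D3:**
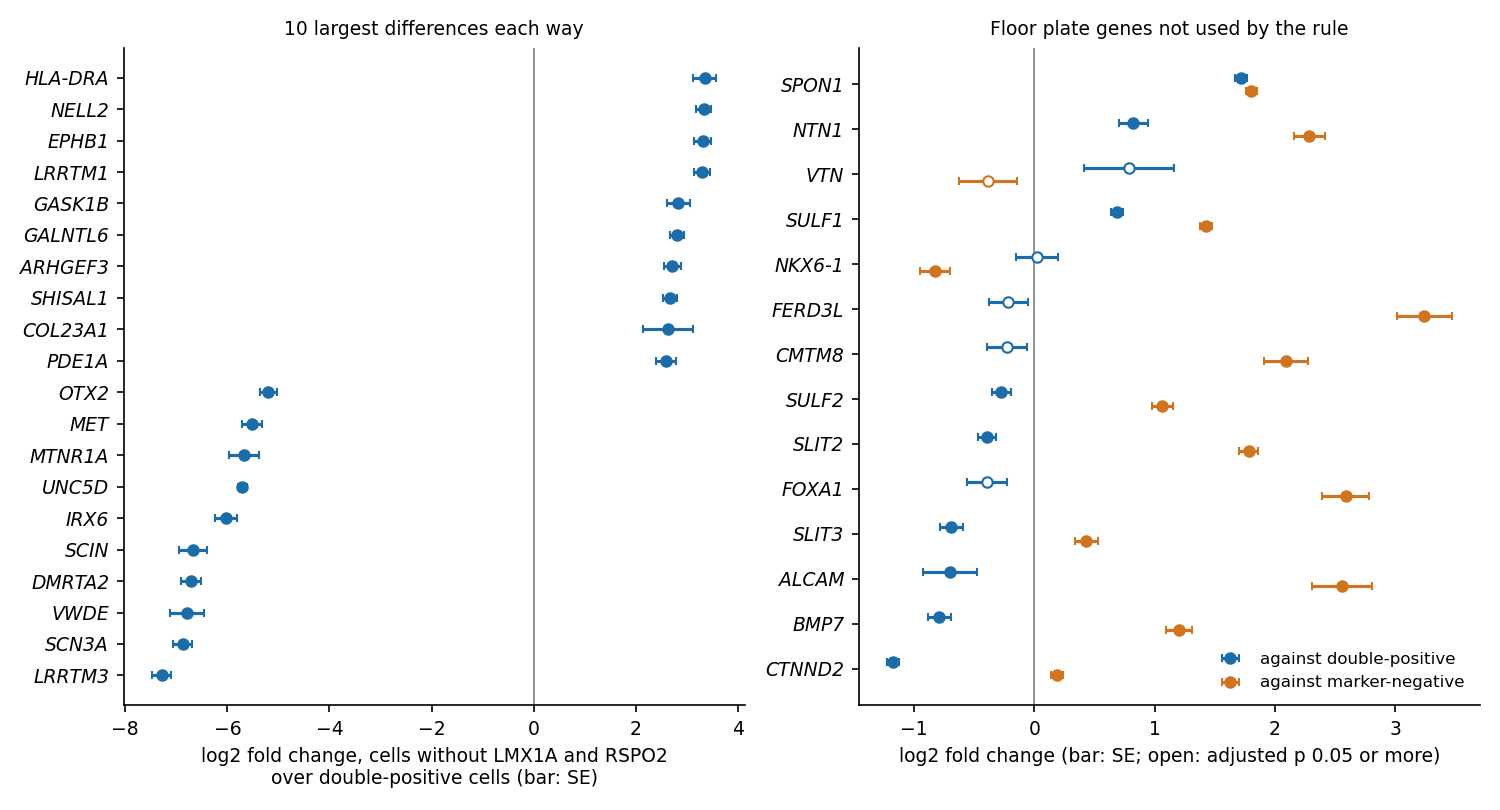
Left, log2 fold changes (points) with standard errors (bars) of the 10 genes most raised and the 10 most lowered in cells without LMX1A and RSPO2 against double-positive cells. Right, the same for 14 floor plate genes against double-positive cells and against marker-negative cells, where filled points passed adjusted p 0.05. SPON1 and NTN1 lie to the right of 0 in both comparisons, and CTNND2 at -1.17 and 0.19.

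Promoter sequence is shown for 1 raised and 1 lowered gene of these 20, chosen after the search: LRRTM1 because its window alone held a motif searched for, and OTX2 because its difference is described at length above. The 250 bases before the RefSeq gene start in Sscrofa11.1 were searched on both strands for TGTTTAC, the core bound by FOXA proteins, and for TAATTA, a core bound by homeodomain proteins such as LMX1A. The windows are chr3:63585534-63585783 (plus strand) for LRRTM1 and chr1:186039027-186039276 (minus strand) for OTX2, each printed 5′ to 3′ with TGTTTAC in capitals.
LRRTM1: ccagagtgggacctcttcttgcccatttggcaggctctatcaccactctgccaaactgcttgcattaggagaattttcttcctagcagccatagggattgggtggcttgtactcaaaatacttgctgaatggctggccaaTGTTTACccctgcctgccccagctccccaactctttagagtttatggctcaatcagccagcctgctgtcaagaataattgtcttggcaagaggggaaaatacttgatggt
OTX2: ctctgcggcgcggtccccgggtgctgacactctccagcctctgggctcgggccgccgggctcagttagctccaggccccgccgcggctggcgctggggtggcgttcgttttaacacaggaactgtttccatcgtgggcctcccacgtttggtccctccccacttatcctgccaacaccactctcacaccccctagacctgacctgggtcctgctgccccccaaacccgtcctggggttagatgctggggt
TGTTTAC stood in 445 of 19556 windows of protein-coding genes (2.28%) and TAATTA in 730 (3.73%). A window was found for 17 of the 20 genes. TGTTTAC stood in 1 of 7 raised genes, LRRTM1, and in 0 of 10 lowered genes, and TAATTA in none of the 17. A match is a run of letters and not a shown binding site.

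Hedgehog genes differed in both directions. DISP1, which releases SHH from the cells that make it, was at 80.1 and 68.3 CPM in cells without LMX1A and RSPO2 against 151 and 134 CPM in double-positive cells (log2 difference -0.92 ± 0.05, adjusted p = 4.12e-08). The transcription factors GLI3 (13.7 and 14.1 CPM against 42.8 and 33.6 CPM, -1.41 ± 0.15) and GLI2 (0.912 and 0.339 CPM against 4.81 and 5.18 CPM) were lower. GLI1, a target that rises with signalling, was at 4.88 and 3.58 CPM against 1.44 and 1.87 CPM (1.35 ± 0.33). The receptor PTCH1 (60.8 and 53.5 CPM against 79.3 and 66.6 CPM, -0.32 ± 0.07) and SMO, which PTCH1 holds in check (83.5 and 70.5 CPM against 71.3 and 58.4 CPM, 0.27 ± 0.07), differed little. Of 12 hedgehog genes tested 3 were higher and 5 lower, where 14.8% and 11.5% of all genes tested were. The calls of GLI1, PTCH1 and SMO were lost without either D11 library (adjusted p = 0.304 to 0.907) and that of GLI2 without D11 B (0.126). SHH itself, used by the rule, was at 94.97 and 83.3 CPM in these cells and at 91.6 and 83.3 CPM in double-positive cells, and FOXA2 at 201 and 200 CPM against 82.5 and 83.5 CPM.

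WNT genes also split. The receptor FZD5 was at 18.9 and 15.4 CPM against 3.36 and 1.87 CPM (2.75 ± 0.20, adjusted p = 3.65e-07), and SFRP2, a secreted inhibitor, at 52.3 and 57.1 CPM against 26.3 and 30.8 CPM (0.96 ± 0.10). WNT5B, a ligand, was lower (14.55 and 14.2 CPM against 36.2 and 38.2 CPM, -1.34 ± 0.17), as were 2 targets of canonical signalling, LEF1 (7.98 and 5.76 CPM against 13.9 and 12.8 CPM) and AXIN2 (24.8 and 21.1 CPM against 34.8 and 31.5 CPM). Of 20 genes tested 5 were higher and 4 were lower, where 14.8% and 11.5% of all genes tested were. Without either D11 library the calls of SFRP2, LEF1 and AXIN2 were lost (adjusted p = 0.0857 to 0.586).

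Of 18 guidance and adhesion genes tested 8 were higher and 9 lower, where 14.8% and 11.5% of all genes tested were. The paper lists SEMA3A, PLXDC2 and SLITRK2 beside LMX1A and RSPO2 as markers of a D11 cluster in these same data. Their falls are therefore not independent of the rule, which sets LMX1A and RSPO2 to 0. SEMA3E (45.3 and 46.8 CPM against 485 and 420 CPM, -3.26 ± 0.11) and SEMA3A (1.73 and 1.85 CPM against 30.3 and 27.0 CPM, -3.96 ± 0.31), secreted ligands that repel axons, were lower. SLITRK2, a synaptic adhesion protein, was at 15.5 and 17.2 CPM against 300 and 319 CPM (-4.22 ± 0.12), and PLXDC2, a membrane receptor, at 391 and 330 CPM against 2649 and 2124 CPM (-2.70 ± 0.12). On the raised side, beside EPHB1, stood the SLIT receptor ROBO2 (20.9 and 15.3 CPM against 7.53 and 5.90 CPM) and the ligand EFNB1 (67.3 and 73.4 CPM against 43.2 and 33.5 CPM). ROBO2 lost its call without either D11 library (adjusted p = 0.180 and 0.151) and EFNB1 without D11 B (0.244).

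Progenitor genes leaned upward, with 7 of 11 higher and 3 lower, where 14.8% and 11.5% of all genes tested were. The same shares apply to the S phase and neuronal counts below. The intermediate filament NES was at 1053 and 1052 CPM against 598 and 498 CPM (0.97 ± 0.10), and the NOTCH target HES5 (36.2 and 35.2 CPM against 15.7 and 14.4 CPM) and the lipid carrier FABP7 (64.7 and 70.5 CPM against 24.3 and 25.7 CPM) were higher as well. HES1, another NOTCH target, was lower (147 and 205 CPM against 204 and 256 CPM, -0.37 ± 0.07, adjusted p = 0.00165), with overlapping groups that were ordered the same way within each library. CDH2, the neural cadherin, was lower (452 and 381 CPM against 1322 and 1117 CPM, -1.52 ± 0.04). Among S phase genes 5 of 7 were higher, such as PCNA, the sliding clamp of DNA replication, at 74.0 and 82.7 CPM against 41.8 and 43.1 CPM (0.91 ± 0.07). Of 9 neuronal markers TUBB3, a tubulin (98.0 and 103 CPM against 24.3 and 35.5 CPM), and the RNA-binding protein ELAVL3 (5.93 and 4.37 CPM against 2.72 and 2.30 CPM) were higher, GAP43 of growing axons was lower (54.2 and 47.6 CPM against 66.6 and 70.0 CPM), and 6 did not pass. Genes of neurogenesis gave no call in 7 tested. For NEUROG1, NEUROD1, NEUROD4 and NHLH1 the standard errors ran from 2.88 to 14.3 on the log2 scale, so the test could not decide for them. HES5, HES1, FABP7, ELAVL3 and GAP43 lost their calls without either D11 library. The same held for SLC1A3, another of the progenitor genes called higher (2.48 ± 0.52).

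Among secreted lipoproteins and complement, APOA1, the main apolipoprotein of high-density lipoprotein, was lower (106 and 144 CPM against 483 and 534 CPM, -2.01 ± 0.12). The paper lists APOA1 too as a marker of the D11 cluster with LMX1A and RSPO2, so this fall is not independent of the rule. CLU, a secreted chaperone, was higher (570 and 699 CPM against 405 and 398 CPM, 0.67 ± 0.16). C1QA, a chain of complement C1q, was at 118 and 146 CPM against 62.3 and 54.4 CPM (1.21 ± 0.22, adjusted p = 0.00135). Its partner chains C1QB and C1QC and the microglial adaptor TYROBP were at 0 to 0.038 CPM in the cells without LMX1A and RSPO2. APOA1 lost its call without either D11 library (adjusted p = 0.352 and 0.280), and C1QA and CLU without D11 B (0.0950 and 0.0756). Fibroblast genes were low in these cells (summed 8.34 and 10.8 CPM over 6 genes, against 36.2 and 31.2 CPM in double-positive cells). Of the 6, 3 were lower (LUM, DCN and COL1A2), as were 11.5% of all genes tested. All 3 lost their calls without either D11 library (adjusted p = 0.196 to 0.747). The part of other cells in these values was not tested.

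Cells that carried 1 of the 2 genes were set beside both groups, with no test. There were 875 and 1241 cells with LMX1A only and 53 and 91 with RSPO2 only. For OTX2, EN1 and PLXDC2 the LMX1A-only cells lay near the cells without either gene, and the RSPO2-only cells lay between them and the double-positive cells. OTX2 was at 3.10 and 4.03 CPM with neither gene, 6.1 and 6.3 CPM with LMX1A only, 60.3 and 50.2 CPM with RSPO2 only, and 128 and 141 CPM with both. EN1 ran 19.0 and 27.9, 17.5 and 21.6, 124 and 88.8, and 179 and 174 CPM in the same order. PLXDC2 was lowest with LMX1A only (330 and 256 CPM) and highest with both (2649 and 2124 CPM). C1QA departed from this order: it was highest with LMX1A only (220 and 243 CPM), above the 118 and 146 CPM with neither gene. GBX2 was at 9.6 and 14.0 CPM with LMX1A only and at 27.7 and 19.3 CPM with RSPO2 only.

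**Figure D4:**
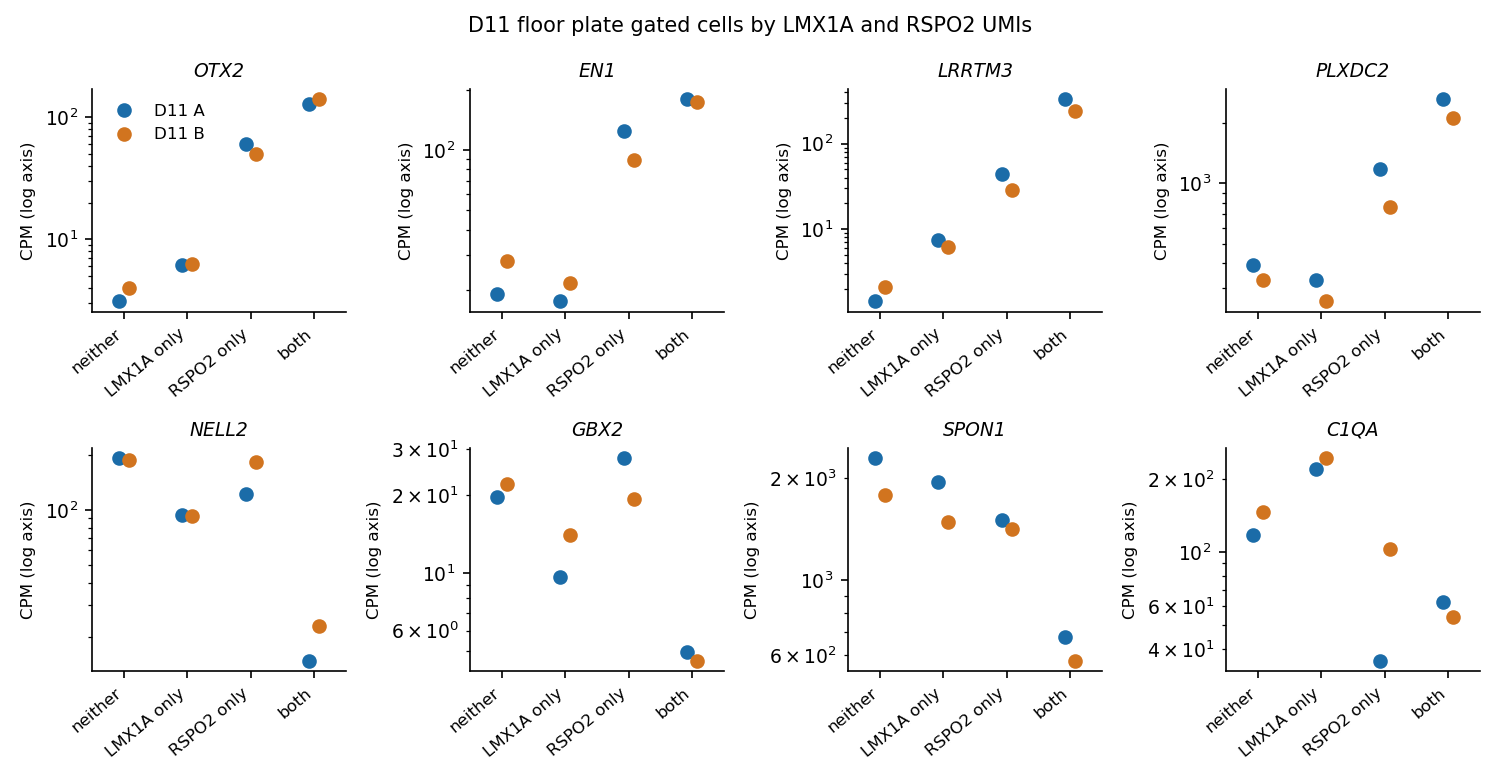
CPM on a log axis of 8 genes in D11 floor plate gated cells with neither LMX1A nor RSPO2, with LMX1A only, with RSPO2 only and with both (points, libraries A and B). OTX2, EN1, LRRTM3 and PLXDC2 are higher in cells with RSPO2 only and with both than in the other 2 states, and SPON1 is lowest with both.

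The same cells were compared with marker-negative progenitors (1655 and 976 cells with 0 UMIs of FOXA2, SHH, CORIN, LMX1A and RSPO2, and otherwise in the same gate), to ask what went with the floor plate markers. Of 17023 genes 48.9% were called, 4376 (25.7%) higher and 3946 (23.2%) lower, against 1676 without D11 A and 2755 without D11 B. With library sizes only in place of TMM scaling the higher share of the calls moved from 52.6% to 37.3% and the median of all genes from 0.00 to -0.12 on the log2 scale.

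Floor plate genes were higher as a group, 13 of 15, with a median log2 difference of 1.78, where 25.7% of all genes tested were higher. FERD3L, a basic helix-loop-helix factor of the floor plate, was at 20.1 and 19.4 CPM in cells without LMX1A and RSPO2 and at 1.59 and 3.43 CPM in marker-negative cells (3.24 ± 0.23, adjusted p = 1.21e-07). FOXA1 was at 39.1 and 79.0 CPM in marker-negative cells and differed by 2.59 ± 0.20, and NTN1 (115 and 158 CPM there) by 2.29 ± 0.13. NKX6-1, a homeobox gene of the ventral neural tube, was the 1 lower gene (14.0 and 12.01 CPM against 22.5 and 29.1 CPM), and VTN did not pass. The marker-negative cells of D11 B held more of FOXA1 and ALCAM than those of D11 A.

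Forebrain and diencephalon genes were lower in 12 of 12 tested, with a median log2 difference of -5.09, where 23.2% of all genes tested were lower. A gene near 0 in the cells without LMX1A and RSPO2 could enter the test only through other classes of cells, where it is higher. This count is therefore a description and not separate support. NKX2-1, a homeobox gene of the hypothalamus, was at 3.24 and 2.22 CPM against 119 and 71.6 CPM (-5.00 ± 0.15, adjusted p = 1.2e-10). DBX1 was at 2.51 and 3.16 CPM against 94.8 and 76.0 CPM, and EMX2 of the dorsal forebrain at 0.274 and 0.828 CPM against 67.2 and 44.9 CPM. OTX2 was lower here as well (111 and 79.7 CPM in marker-negative cells, -4.61 ± 0.17). GBX2 was higher (1.39 and 3.93 CPM there, 3.25 ± 0.25), whereas PAX5 was lower (45.8 and 59.1 CPM there, -1.57 ± 0.14). EN1 (14.1 and 26.5 CPM there) did not pass (adjusted p = 0.204). NKX6-1 lost its call without either D11 library (adjusted p = 0.0862 and 0.348).

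Of the WNT genes 14 of 20 were lower, where 23.2% of all genes tested were. WNT8B, a forebrain ligand, was at 4.29 and 3.62 CPM against 174 and 121 CPM (-5.09 ± 0.10), the targets LEF1 and SP5 differed by -3.58 ± 0.10 and -4.30 ± 0.20, and the inhibitor SFRP1 by -2.31 ± 0.09. FZD5 was higher (2.08 ± 0.15), as was the target AXIN2 (24.8 and 21.1 CPM against 21.0 and 19.4 CPM, 0.30 ± 0.08). Of 12 hedgehog genes 4 were higher and 6 were lower, where 25.7% and 23.2% of all genes tested were. PTCH1 was lower, at 60.8 and 53.5 CPM against 169 and 143 CPM (-1.32 ± 0.06), and HHIP, which binds hedgehog proteins, at 1.32 and 1.28 CPM against 14.1 and 11.3 CPM (-3.18 ± 0.24). The co-receptor CDON was higher (31.3 and 32.8 CPM against 8.49 and 13.6 CPM, 1.75 ± 0.15), and NKX2-2 was higher by 0.55 ± 0.14. GLI1 was at 4.88 and 3.58 CPM against 4.18 and 2.54 CPM (0.35 ± 0.23, adjusted p = 0.231). Without either D11 library the calls of PTCH1 (adjusted p = 0.125 and 0.0551), NKX2-2 (0.759 and 0.131) and AXIN2 (0.651 and 0.528) were lost.

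Of all genes tested 25.7% were higher and 23.2% lower. Neurogenesis genes were lower in 7 of 7, such as the NOTCH ligands DLL3 (2.55 and 1.47 CPM against 72.0 and 48.0 CPM) and DLL1 (3.69 and 2.00 CPM against 42.3 and 33.4 CPM). As with the forebrain genes, those near 0 in the cells without LMX1A and RSPO2 could only be lower, so this count is not separate support. Neuronal markers were lower in 6 of 9 and S phase genes in 7 of 7, with PCNA at 144 and 153 CPM in marker-negative cells (-0.80 ± 0.05). Genes of ciliated cells were higher in 4 of 4. Of these FOXJ1, the factor for motile cilia, was at 10.9 and 13.5 CPM against 1.33 and 3.05 CPM (2.75 ± 0.30). NES was higher (307 and 410 CPM there, 1.69 ± 0.10), and HES5, FABP7 and SOX9 were lower (-1.11, -1.38 and -1.83). FABP7 lost its call without D11 A (adjusted p = 0.122), and HES5 without either (0.451 and 0.624).

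Among genes of at least 20 CPM in the higher group, the largest rise was that of THRB, a thyroid hormone receptor, at 219 and 151 CPM against 8.23 and 15.1 CPM (4.25 ± 0.21, adjusted p = 7.54e-09). CHGB, a protein of dense-core vesicles, was at 169 and 174 CPM against 9.42 and 15.2 CPM (4.01 ± 0.15), and DIRAS3, a small GTPase (ENSSSCG00000003797, chromosome 6, 144576342 to 144578820), at 2345 and 2393 CPM against 128 and 299 CPM (3.68 ± 0.22). The others were PDE1A, GASK1B, RASSF9, SERTM1, CCDC68, HLA-DRA and SLA-DQB1, the last being a class II histocompatibility chain of a multigene family and so of uncertain level. The largest falls were CDH19, EMX2, MECOM, SEMA3A, LHX5, CAPN6, CDH8, NETO1, WNT8B and ADAMTS20, from -6.49 to -5.04. Each of these 20 kept its call without either D11 library.

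Against all other D11 cells within the depth limits (11093 and 12292), 8404 of 19113 genes (44.0%) were called, 4110 (21.5%) higher and 4294 (22.5%) lower, from 4 sums with 1 residual degree of freedom. Without D11 A or D11 B 1884 and 2251 were called. The rule itself keeps neuronal and mitotic cells out, and all 9 neuronal markers were lower, such as INA (6.29 and 9.04 CPM against 251 and 309 CPM, log2 difference -5.07). The forebrain gene EMX2 differed by -5.10. Among rises, THRB (54.5 and 53.2 CPM in other cells, log2 difference 1.87 ± 0.10), CHGB (46.0 and 57.0 CPM, 1.86 ± 0.06), METRNL, a secreted protein (295 and 310 CPM against 84.1 and 114 CPM, 1.75 ± 0.08), and PPFIBP2 (52.7 and 50.1 CPM against 15.6 and 18.9 CPM, 1.70 ± 0.08) led with CCDC68, ENPP6, GASK1B, GALNTL6, ARHGEF3 and C17orf58. With library sizes only, the higher share of calls moved from 48.9% to 30.1%, with a median of -0.13 over all genes.

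The cells without LMX1A and RSPO2 also varied among themselves. The variance of each gene over its mean (Fano factor, 1 for pure sampling) was taken over cells thinned to 5000 UMIs (1894 and 2312 cells). It had a median of 1.10 and 1.08 over 3790 genes. It was not adjusted for a gene's mean, so its ranking is not one of relative spread. Ranked by the lower of the 2 libraries, the highest were VIM, an intermediate filament (10.4 and 9.45), TMSB10, which binds actin (7.004 and 6.79), the glycolytic enzyme ENO1 (7.27 and 6.29) and DIRAS3 (6.27 and 5.55). CHGB had a Fano factor of 4.99 and 5.03 although only 29.4% and 28.4% of the cells had a UMI of it, and LRP1B, a lipoprotein receptor, of 5.77 and 4.45 with a UMI in 46.4% and 49.8%. CDKN1C, an inhibitor of the cell cycle, was at 7.50 in D11 A and 4.20 in D11 B. TUBA1B, TMSB4X, GAPDH, CCN2, OPCML, NEGR1, ACTG1 and SPON1 made up the rest of the first 15, of which 14 stayed there without thinning. Means per thinned cell were 36.1 and 34.1 UMIs for VIM and 22.4 and 25.1 UMIs for GAPDH, but 0.842 and 0.817 UMIs for CHGB.

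GBX2 and EN1 were found in 276 and 394 and in 320 and 497 of the cells. NELL2 was at 286 and 289 CPM in cells with a GBX2 UMI and at 174 and 166 CPM in those without, and DIRAS3 at 3208 and 3090 CPM against 2178 and 2238 CPM. PAX5 was at 36.1 and 33.7 CPM in cells with an EN1 UMI against 12.1 and 9.7 CPM, and PLXDC2 at 605 and 478 CPM against 343 and 285 CPM. Cells with a C1QA UMI (976 and 1375) held less PAX5 (7.4 and 6.6 CPM) than those without (26.0 and 27.1 CPM). These splits were made by a gene's own count and were not tested, and deeper cells are more likely to have a UMI.

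On later days the same rule kept fewer cells. It found 330 and 1081 cells on D28 (3.57% and 9.77% of cells within the depth limits) and 47 and 71 on D45 (0.447% and 0.637%). The D28 libraries stood apart from each other: 24 of the D28 A cells and 277 of the D28 B cells had all 3 floor plate genes. Their median depth was 16704 and 16424 UMIs on D28 and 20095 and 16315 UMIs on D45, against 11139 and 11072 UMIs on D11. Matrigel embedding and the change of medium fall between D11 and D28, so culture conditions and time cannot be told apart in what follows. Descendants of the D11 cells and other cells that meet the rule cannot be told apart.

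Between D28 and D11, 3768 of 15163 genes (24.8%) were called, 2087 (13.8%) higher and 1681 (11.1%) lower. Interferon and complement genes rose in 7 of 8 tested: IFI6 went from 8.25 and 5.76 CPM to 3194 and 2625 CPM (log2 change 8.62 ± 0.43, adjusted p = 1e-05), and ISG15 from 7.25 and 7.08 CPM to 668 and 798 CPM (6.57 ± 0.52). The 8th gene of that list, C1QA, fell to 4.28 and 1.82 CPM. Boundary and hindbrain genes fell in 5 of 5, with GBX2 at 0 and 0.221 CPM on D28. A gene near 0 on D28 could enter the test only through another day, so this count is not separate support. Taking 3 UMIs as the floor of a library, GBX2 was at least 36.8-fold lower in D28 A. S phase genes fell in 7 of 7. Of the floor plate genes 5 of 15 fell, CMTM8 rose, and SPON1 (750 and 1322 CPM, adjusted p = 0.0527), NTN1 (321 and 606 CPM) and FOXA1 (244 and 376 CPM) did not pass. SPON1 passed without D28 A, D28 B, D45 A or D45 B (adjusted p = 0.0166, 0.00134, 0.0402 and 0.0372), with lower levels than on D11, and NTN1 without D28 B (0.00456). Fibroblast collagens rose with the day, COL1A2 from 1.41 and 1.36 CPM to 232 and 318 CPM on D28, in 4 of 6 fibroblast genes, and their part in other changes was not tested. With 1 library left out the number of calls ran from 1425 (without D11 A) to 6444 (without D28 B), at 1532 without D11 B and 5977 without D28 A. CMTM8 lost its call without either D11 library (adjusted p = 0.187 and 0.204). With library sizes only, the higher share of calls moved from 55.4% to 66.0% and the median from 0.03 to 0.14.

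The difference from double-positive cells was set against that on D28, a comparison chosen after the data were seen, where 108 and 86 double-positive cells were present. It changed between the days for 1158 of 18217 genes (6.36%), 9 of 25 named genes among them. Most of the 25 were named for their large difference on D11, and the test between days uses the same D11 values, so a smaller difference on D28 is favoured by the choice and their share is not read against the 6.36%. SPON1 was higher in cells without LMX1A and RSPO2 on both days (log2 differences of 1.75 and 1.93) and OTX2 lower on both (-5.16 and -5.80), and neither difference passed the test between days (adjusted p = 0.657 and 0.812). NELL2 went from 3.38 on D11 to -0.37 on D28.

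Between D45 and D11, 3704 of the same 15163 genes (24.4%) were called, 1940 (12.8%) higher and 1764 (11.6%) lower. Astrocyte genes rose in 2 of 4 tested, AQP4 and GFAP. The water channel AQP4 went from 0.0460 and 0 CPM to 105 and 68.0 CPM, the proteoglycan BCAN from 0.0460 and 0.0750 CPM to 57.2 and 52.8 CPM, and GFAP from 0.137 and 0.452 CPM to 51.6 and 34.4 CPM. AQP4, BCAN and GFAP were near 0 on D11 and could enter the test only through a later day. They could only be called higher, so the count and these rises are not separate support. The matrix protein SPARCL1 went from 2.28 and 2.11 CPM to 844 and 1145 CPM (8.67 ± 0.58, adjusted p = 1.88e-05). APOE rose by 7.88 ± 0.40 on the log2 scale, while APOA1 fell by 5.89 on that scale. SPON1 fell to 784 and 361 CPM (adjusted p = 0.00451) and FOXA1 to 187 and 141 CPM (0.0109), and NTN1 was at 408 and 334 CPM (0.0514). All 6 fibroblast genes were higher. With 47 and 71 cells, these sums are the least deep of the series. Leaving out 1 library gave 1659 (without D45 B) to 5933 calls (without D28 A), with 1983, 1817, 5599 and 1923 without D11 A, D11 B, D28 B and D45 A. FOXA1 lost its call without either D11 library or D45 B (adjusted p = 0.0626 to 0.098). With library sizes only, the higher share of calls moved from 52.4% to 65.2%.

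**Figure D5:**
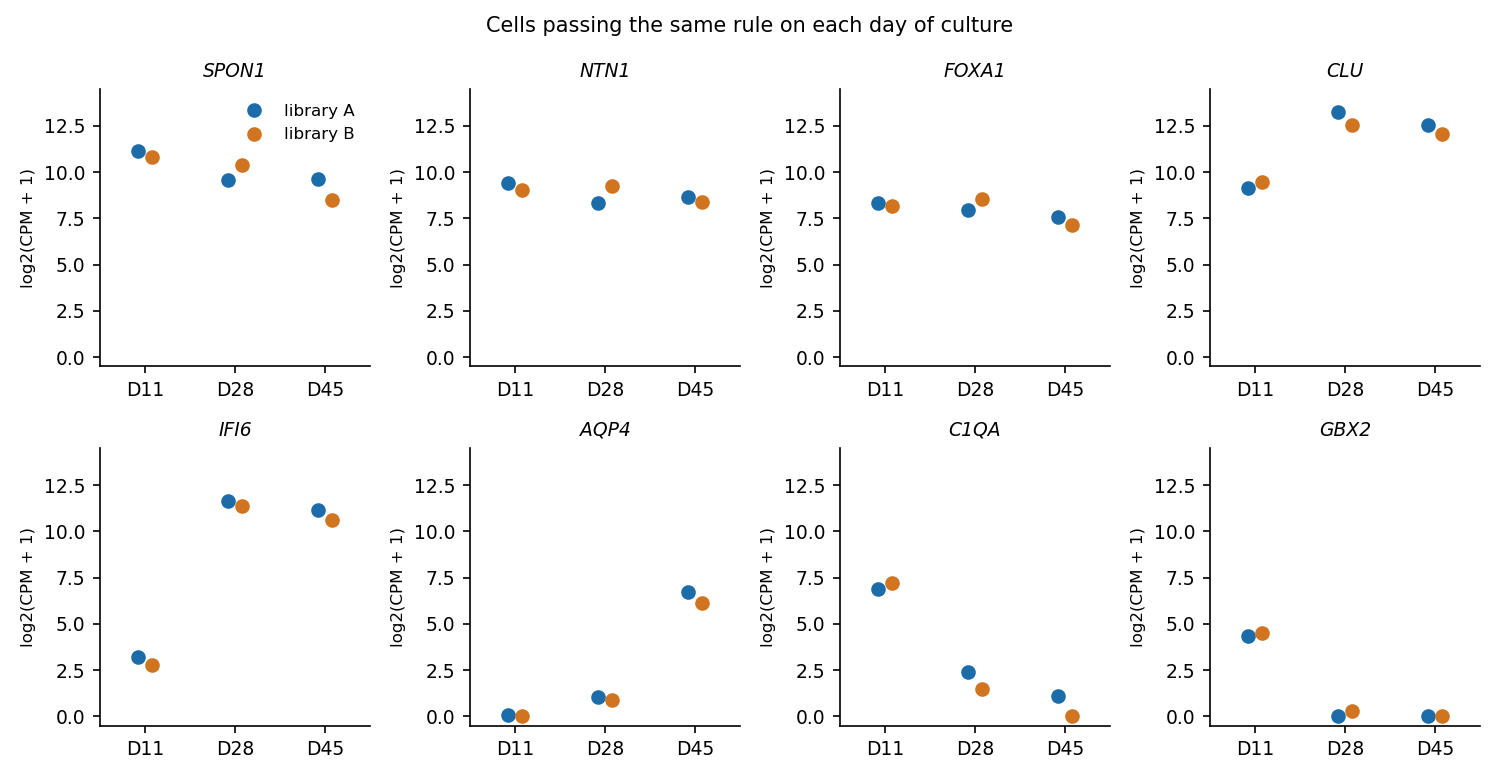
Levels, as log2(CPM + 1), of 8 genes in the cells that pass the same rule in each library of D11, D28 and D45 (points). IFI6 is at 8.25 and 5.76 CPM on D11 and at 3194 and 2625 CPM on D28, AQP4 is at 105 and 68.0 CPM on D45, and C1QA and GBX2 are highest on D11.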

How the data were processed

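Single-cell RNA libraries were analysed from the UMI count matrices that the authors deposited, which hold raw counts per gene and barcode with no normalization. Per the labels, libraries were made with the GEM-X 3' v4 chemistry and processed with Cell Ranger and Seurat 4.3.0 on Sscrofa11.1. Groups came from the sample titles. Cells were classed by counts of 11 genes. Counts were summed per library and class (at least 20 cells) and tested with edgeR 4.0.16 in R 4.3.3 (TMM, filterByExpr, quasi-likelihood test, Benjamini-Hochberg, 0.05), with the library as a term within D11 and without a block between days. Alternatives were DESeq2 1.42.0, other scalings and filters, stricter rules for cells, thinning, and leaving out each library. Fits were tested on simulated data with known changes. The fit of D28 against D11 recovered 34.3% of 2-fold and 95.45% of 4-fold changes. The fit of D45 against D11 recovered 7.46% and 65.15%, so a gene that did not pass between days may still have changed. Against double-positive cells 82.1% of 2-fold changes were recovered. The cells, the gene lists and the named genes' rule (genes of the lists, and the 10 largest changes per direction with at least 20 CPM in the higher group and 1 direction in every library, and the 15 highest Fano factors among genes with at least 0.2 UMIs per thinned cell) were chosen with earlier results of these data known. Ribosomal, mitochondrial and unnamed genes were not named. Of 279 list genes 251 were in the files. Doublets were scored against simulated doublets at 0.4% per 1000 cells and left out only as an alternative. The authors' cell annotations were not used here. Results of some list genes are not reported here.

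Deviations of replicate A from its day's mean over 6649 genes correlated at -0.62 (D11 and D28), 0.057 (D11 and D45) and -0.096 (D28 and D45). Libraries of the same letter thus did not go together. With 2 libraries per day, -0.62 means that D11 A went with D28 B, so these days share structure with the letters crossed. The fits between days had no block and left this out. A block with the D28 letters crossed called 4464 genes on D28, against 3768. The cells without LMX1A and RSPO2 of D11 A summed to 21932239 UMIs. The number of unused columns from other samples was 0. The numbers of cells and UMIs set the precision, and intervals cover counting error only.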

Additional observations from a re-analysis of the deposited data

Results flagged for a closer look

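The difference between cells without LMX1A and RSPO2 and double-positive cells was also tested on D28, where 108 and 86 double-positive cells were present, and compared with that on D11 in 1 edgeR quasi-likelihood fit of 24 sums with an interaction term. This comparison was chosen after the data were seen. Of 18217 genes, 1158 differed between the days (6.36%). Among 25 genes examined 9 did so, each listed with the change in its log2 difference from D11 to D28. UNC5D changed by 7.30 (D28 levels of 14.3 and 22.6 CPM without the 2 genes and 4.52 and 10.0 CPM in double-positive cells, adjusted p = 9.09e-08), VWDE by 6.35 (1.25 and 2.10 CPM against 3.95 and 1.43 CPM, or 7 and 2 UMIs in double-positive cells), SCIN by 6.16 (5.35 and 5.14 CPM against 8.47 and 8.60 CPM), IRX6 by 5.19 (0.357 and 0.221 CPM against 0.565 and 0.717 CPM, or 1 UMI in each double-positive library), SCN3A by 4.86, LRRTM3 by 2.64 and EN1 by 2.34 (29.4 and 16.8 CPM against 50.3 and 28.7 CPM, adjusted p = 0.00127). NELL2 changed by -3.75 (88.0 and 99.9 CPM against 107 and 171 CPM, adjusted p = 2.56e-06) and LRRTM1 by -1.76. The difference in OTX2 did not pass this test (adjusted p = 0.812): it was -5.16 on D11 and -5.80 on D28. The D28 double-positive levels of IRX6 and, in D28 B, VWDE were below 3 UMIs. Most of the 25 genes were named for a large difference on D11, which the test between days uses again. The causes were not tested.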

How the results depend on the processing

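Of the 81 genes named for the comparison with double-positive cells, 39 of 76 calls were lost under at least 1 alternative and none changed direction. Most were lost when a D11 library was left out (34 without A and 35 without B). Without either library the counts of calls ran from 590 to 609 here, from 1676 to 2755 against marker-negative progenitors and from 1884 to 2251 against other D11 cells. On D28 they ran from 1425 to 6444 and on D45 from 1659 to 5933. Without the replicate block (the library term) 4731 genes were called against other D11 cells and 2434 against double-positive cells, and with all 6 libraries in 1 fit 4343 and 2492. DESeq2 called 5140 against other D11 cells. Thinning to 5000 UMIs gave 1706 against double-positive cells, and thinning to 2000 UMIs gave 1174 on D28. The mean share of D11 cells kept was 15.6%. It was 5.74% after thinning to 2000 UMIs, 14.0% after thinning to 5000, 5.76% with all 3 markers required and 27.3% without the LMX1A and RSPO2 terms. It ran from 14.98 to 16.2% with 1 library left out. Between days the replicate block called 3416 genes on D28 and 3528 on D45, and with the D28 letters crossed, a setting chosen after seeing the data, 4464 and 4202. The log2 change of FOXA1 on D28, not called, was -0.091. It turned to 0.025 with library sizes only, 0.017 after thinning to 2000 UMIs and 0.076 without D28 A, and was -0.33 without D28 B. The D45 comparison could not be fitted after thinning to 2000 UMIs or with all 3 markers required, because too few cells were left. The causes were not tested.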
